A study of Mus musculus with 9 samples.

Results

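The 7 immunity-related GTPases (IRG) Irgm1, Irgm2, Igtp, Iigp1, Tgtp1, Tgtp2 and Ifi47 were examined in mouse kidney. They were taken by name from 54532 genes with deposited read counts, and 7 of 7 had enough reads to be tested. The kidneys came from 3 groups with 3 polyA RNA-seq libraries each, all on the C57BL/6J background. The first group was wild type, purchased at 4 to 8 weeks of age, with no injection given in its labels. The second was Trex1-/- mice, 1 month old at the start, given the PBS vehicle for 2 weeks. The third was Trex1-/- mice of the same age given SN-011, an antagonist of the innate immune adaptor STING, for the same 2 weeks by daily intraperitoneal injection. The Trex1-/- mice were bred from heterozygous crosses in another colony than the wild type, so that genotype, source and injection cannot be told apart between wild type and PBS.

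IRG proteins are large GTPases of cell-autonomous immunity that interferons switch on in mouse cells. The regulatory members, Irgm1, Irgm2 and Igtp (also called Irgm3), sit on host membranes and hold the effector members in an inactive state there. The effector members, Iigp1 (Irga6), Tgtp1 and Tgtp2 (both Irgb6) and Ifi47 (Irgd), gather on the vacuoles of parasites and bacteria and break them open, together with guanylate-binding proteins (GBP) and the conjugation machinery of autophagy. TREX1 removes DNA from the cytosol, where it would otherwise be sensed by cGAS, and cGAS acts through STING to induce type I interferon.

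The start sites of these genes share letters that interferon-activated factors read, and the sequences are shown because all members but one with an entry carry them. The interferon-stimulated response element (ISRE) was searched as GAAANNGAAA and the gamma-activated sequence (GAS) as TTCNNNGAA, on both strands, in RefSeq promoter windows of build GRCm38.p6 that run from 250 bases before to 50 bases after each start. Iigp1 had no window listed. ISRE letters were present in 5 of the 6 windows listed for members, beside 3.44% of 32851 windows of all genes. GAS letters were present in 4 of the 6 member windows, beside 8.30% of all windows. The ISRE letters were not particular to the members, since 5 of 6 windows of GBP genes and 3 of 6 of other IRG genes also had them. Each stretch below runs 5′ to 3′ on the gene's strand and stops before the RefSeq start, with the ISRE letters in capitals.
Irgm1: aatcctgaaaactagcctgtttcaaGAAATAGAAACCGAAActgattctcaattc
Irgm2: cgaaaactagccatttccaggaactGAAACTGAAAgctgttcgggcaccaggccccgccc
Igtp: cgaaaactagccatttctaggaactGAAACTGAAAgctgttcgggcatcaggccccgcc
Tgtp1: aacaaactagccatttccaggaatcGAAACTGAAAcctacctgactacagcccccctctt
Tgtp2: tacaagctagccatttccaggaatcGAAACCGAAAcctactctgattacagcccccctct

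In the Irgm1 stretch (chr11:48871421-48871475, minus strand) the capitals cover 2 overlapping ISRE matches. The Irgm2 stretch (chr11:58214888-58214947, plus strand) and the Igtp stretch (chr11:58199497-58199555, plus strand) were the same at 57 of 59 bases, or 96.6%. The Tgtp1 stretch (chr11:48992289-48992348, minus strand) and the Tgtp2 stretch (chr11:49064248-49064307, minus strand) were the same at 44 of 60 bases, or 73.3%. Both counts compare the stretches position by position from the ISRE, with no gaps allowed. After the ISRE an extra base in Tgtp2 puts its stretch out of register with that of Tgtp1, so 73.3% understates their likeness. Irgm2, Igtp, Tgtp1 and Tgtp2 each had GAS letters 2 bases before the ISRE. No GAS letters were found in the Irgm1 window and neither motif in the Ifi47 window, which says only that these letters are not in these 300 bases. Annotation (GENCODE vM21) places the Igtp stretch outside any gene and the Irgm2 and Tgtp1 stretches in introns of longer transcripts of the same genes. The Tgtp1 and Tgtp2 stretches both lie in introns of Olfr56 on the opposite strand, and the Irgm1 stretch lies in an exon of a non-coding Irgm1 transcript. A match describes letters and was not tested as a binding site.

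All 7 IRG transcripts were higher in Trex1-/- kidneys given PBS than in wild type, by 3.15 to 5.13 times in mean CPM (read counts scaled to a common library total). By edgeR's quasi-likelihood test over 16646 genes, 7 of 7 members had a Benjamini-Hochberg adjusted p under 0.05, all higher, with a median log2 fold change of 2.24. Over all genes tested, 1.88% were called in either direction and 1.44% were called higher, and the median log2 fold change was 0.00. The 3 PBS libraries all lay above the 3 wild-type libraries for 7 of 7 members, beside 13.1% of all genes. All PBS libraries carried Y-linked reads and 1 wild-type library did. Against that library alone the ratio of the PBS mean was 2.32 to 4.52 across members, and for Tgtp1 it was 3.26 where it was 5.13 over all libraries. After SN-011, 6 of 7 members were called higher than in wild type, beside 0.823% of all genes, and 2 or 3 of 7 without wild-type replicate 1 or 2. Between SN-011 and PBS, 0 of 7 were called by edgeR.

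**Figure D1:**
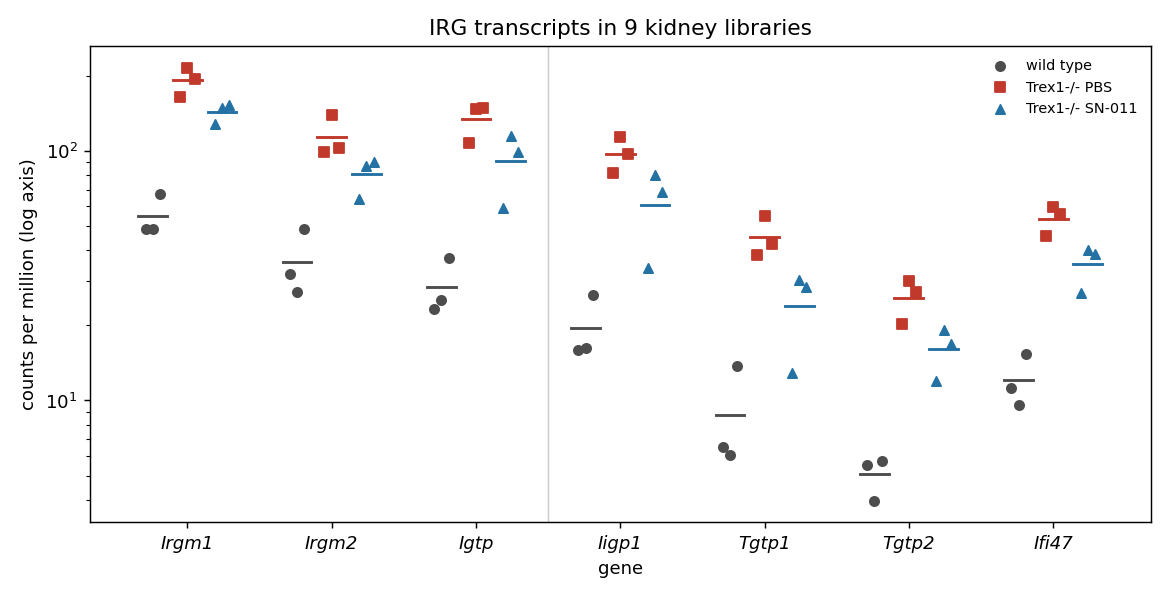
CPM on a log axis for the 7 genes in the 9 kidney libraries. Points are single libraries, bars are group means (n = 3), and the vertical line separates the 3 regulatory members on the left from the 4 effector members. PBS means are the highest and wild-type means the lowest for all 7 genes, with overlap of SN-011 and PBS points for Igtp and of SN-011 and wild-type points for Tgtp1. SN-011 replicate 1 is the lowest SN-011 point for all 7.

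The targeted gene could not check the genotype. No library, of any group, had a count for Trex1. Its 1147 exon bases are all (100%) also exon bases of Atrip, and pairs there cannot be given to either gene, so the counts set no limit on its level. Atrip itself, looked at after its values were seen, had 14.4 to 16.1 CPM in wild type, 40.3 to 48.5 in PBS libraries and 37.1 to 37.6 in SN-011 libraries, and its PBS against wild-type value was 1.56 (edgeR adjusted p 4.90e-05). Library depth was 16118813 to 21928965 counts. The summed reads of 4 Y-linked genes exceeded 10 CPM in wild-type replicate 3, in PBS replicates 1, 2 and 3 and in SN-011 replicate 2, and Xist was abundant in the other 4 libraries alone, so the make-up by sex differed between the groups. Kidney identity showed in all 9 libraries by 8 markers of podocytes and tubules, led by Umod and Slc34a1. They summed to 17385 to 19113 CPM in wild type, 15791 to 16694 with PBS and 16566 to 16929 with SN-011. The PBS sums all lay under the wild-type sums, and 0 of the 8 markers were called between these groups by edgeR.

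Among the regulatory members, Irgm1, which guards host organelle membranes and whose loss leaves mice open to intracellular bacteria, had the most counts. Its wild-type libraries held 48.6, 48.5 and 67.1 CPM, PBS libraries 165, 216 and 195 CPM, and SN-011 libraries 128, 149 and 153 CPM. The 3 groups did not overlap, and SN-011 lay between the others. Its log2 fold change from wild type to PBS was 1.81 (SE 0.153, edgeR adjusted p 2.18e-04). With SN-011 it remained higher than wild type by 1.39 (SE 0.152, adjusted p 0.00369). Against PBS the SN-011 difference was -0.42 (SE 0.148, adjusted p 0.329), the smallest of the 7 and not called.

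Irgm2, a regulator on Golgi and endosomal membranes, had 32.0, 27.2 and 48.9 CPM in wild type. PBS libraries had 98.8, 139 and 103 CPM, and SN-011 libraries had 64.2, 87.3 and 90.6 CPM. Again the groups did not overlap, with PBS replicate 1 close above SN-011 replicate 3. Its log2 difference between PBS and wild type was 1.66 (SE 0.226, edgeR adjusted p 0.00352), the smallest of the 7. Between SN-011 and wild type it was 1.17 (SE 0.224, adjusted p 0.0383), and between SN-011 and PBS it was -0.49 (SE 0.219, adjusted p 0.432). Of its exon bases, 4.39% are shared with Igtp on the same strand.

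Igtp, the regulator found on the endoplasmic reticulum and lipid droplets, had 23.2, 25.3 and 37.3 CPM in wild type. PBS libraries had 108, 147 and 149 CPM, and SN-011 libraries 58.9, 115 and 98.8. It was the only member whose SN-011 and PBS libraries overlapped, since SN-011 replicate 2 exceeded PBS replicate 1. The PBS against wild-type log2 difference was 2.24 (SE 0.260, edgeR adjusted p 0.00133), larger than those of Irgm1 and Irgm2 as values. The SN-011 difference was 1.67 from wild type (SE 0.256, adjusted p 0.0168) and -0.56 from PBS (SE 0.247, adjusted p 0.425).

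Among the effectors, Iigp1 is the member best known for coating and vesiculating the Toxoplasma vacuole. Wild-type libraries held 15.9, 16.3 and 26.4 CPM, PBS libraries 81.8, 114 and 97.1 CPM, and SN-011 libraries 33.9, 80.3 and 68.4 CPM. The SN-011 libraries spread widely, with replicate 1 near the wild-type range and replicate 2 just under the lowest PBS library. The PBS increase of Iigp1 was 2.32 in log2 units (SE 0.307, edgeR adjusted p 0.00288). It was higher with SN-011 than in wild type by 1.64 (SE 0.302, adjusted p 0.0323), and the SN-011 against PBS difference was -0.68 (SE 0.291, adjusted p 0.413).

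Tgtp1 and Tgtp2 encode near-identical Irgb6 effectors that bind the vacuole early, so their counts are uncertain. Of 150-base windows in the longest transcript, 74.1% of Tgtp1 windows also occur in Tgtp2 or Gm12185 transcripts and 71.7% of Tgtp2 windows occur in Tgtp1, and only uniquely mapped pairs were counted. Wild-type libraries had 6.51, 6.05 and 13.8 CPM of Tgtp1, PBS libraries 38.2, 54.8 and 42.4, and SN-011 libraries 12.9, 30.3 and 28.4. SN-011 replicate 1 lay under wild-type replicate 3, so these groups overlapped, while the PBS libraries stood above both. In log2 units the PBS increase was 2.37 (SE 0.370, edgeR adjusted p 0.0081), and without wild-type replicate 1 it was 2.19 and no longer called (adjusted p 0.0558). Tgtp1 was the member not called between SN-011 and wild type (1.45, SE 0.366, adjusted p 0.087). It also had the most negative SN-011 against PBS value, -0.92 (SE 0.348, adjusted p 0.370).

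The wild-type libraries held 5.52, 3.97 and 5.73 CPM of Tgtp2, the PBS libraries 20.2, 30.1 and 27.3, and the SN-011 libraries 12.0, 19.2 and 16.9. The groups did not overlap, and PBS replicate 1 lay close above SN-011 replicate 2. The differences were 2.35 (SE 0.223, edgeR adjusted p 3.96e-04) for PBS and 1.66 (SE 0.222, adjusted p 0.00908) for SN-011, both against wild type. Between SN-011 and PBS the value was -0.69 (SE 0.207, adjusted p 0.281). Pairs from sequence that both copies share were not counted for either, so a sum of Tgtp1 and Tgtp2 does not recover them. The sum had means of 13.9 ± 5.02 (wild type), 71.0 ± 13.3 (PBS) and 39.9 ± 13.2 CPM (SN-011; SD over 3 libraries). The PBS mean was 5.12 times the wild-type mean, and an exact two-sided permutation test gave 0.1, the smallest p that 3 against 3 libraries allow.

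Ifi47, an effector that loads onto vacuoles after the other effectors, had 11.2, 9.62 and 15.3 CPM in wild type. PBS libraries had 45.7, 59.4 and 55.8 CPM, and SN-011 libraries had 26.9, 40.0 and 38.6 CPM. The 3 groups did not overlap. Ifi47 was higher than in wild type by 2.16 with PBS (SE 0.201, edgeR adjusted p 3.78e-04) and by 1.55 with SN-011 (SE 0.199, adjusted p 0.00813) on the log2 scale. The SN-011 against PBS value was -0.61 (SE 0.191, adjusted p 0.289). Ifi47 shares 4.49% of its exon bases with Olfr56 on the same strand.

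**Figure D2:**
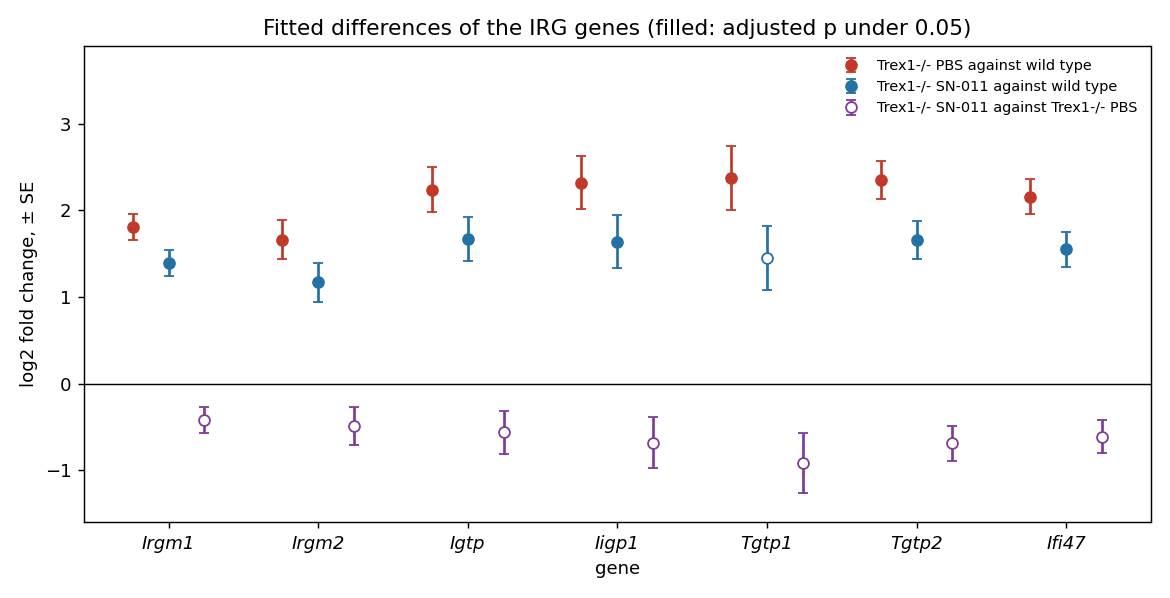
Fitted log2 fold changes with standard errors for each gene in the 3 comparisons, each over 3 libraries a group. Filled points passed an edgeR adjusted p under 0.05 and open points did not. All PBS against wild-type values lie between 1.66 and 2.37 and all SN-011 against PBS values between -0.92 and -0.42.

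The question of the second comparison was whether the STING antagonist lowers these transcripts. All 7 members had values below 0, with a median log2 fold change of -0.61, while the median of all genes was -0.01. None of them passed the adjusted threshold, where 0% of all genes were called, and the lowest adjusted p of the members was 0.281. At an unadjusted p under 0.05 edgeR had 7 of 7 members and 1905 of 16646 genes, but 2 of 7 without SN-011 replicate 1 or without PBS replicate 2 and 4 of 7 without PBS replicate 3. SN-011 libraries all lay under PBS libraries for 6 of 7 members, Igtp being the exception, beside 8.41% of all genes. The SN-011 mean was 0.530 (Tgtp1) to 0.747 (Irgm1) of the PBS mean.

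The size of this difference moved with the sex-linked make-up of the libraries and with single libraries of both groups. PBS libraries all carried Y-linked reads, while SN-011 replicates 1 and 3 carried Xist. With an added term for Y-linked reads the median over members was -0.26, 7 of 7 values were still below 0 and 0 of 7 had an unadjusted p under 0.05. Within libraries with Y-linked reads, SN-011 replicate 2 had 0.672 to 0.857 of the mean PBS level across members. SN-011 replicate 1, lowest in its group for 7 of 7 members, changed the median to -0.39 when left out. Without SN-011 replicate 2 the median went the other way, to -0.78. Without PBS replicate 1 it was -0.71, and without PBS replicate 2 it was -0.52. Wild-type replicate 3, the one wild-type library with Y-linked reads, was the highest of its group for 7 of 7. The part of sex in these results was not tested further.

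The third comparison asked how far the members under SN-011 still stood from wild type. With edgeR, 6 of 7 were called, all higher, with a median log2 fold change of 1.55 (over all genes, 1.28% were called in either direction). The SN-011 libraries all lay above wild type for 6 of 7 members, Tgtp1 overlapping, beside 11.8% of all genes. In ratios of means the members stood 2.24 (Irgm2) to 3.18 (Igtp) times above wild type. Of the PBS minus wild-type difference in mean CPM, 41.6% (Tgtp1) to 64.6% (Irgm1) was left with SN-011. The comparisons share libraries, so these percentages are not independent of the other values. No member was called between SN-011 and PBS, and the PBS libraries differ from the others in sex-linked make-up. With a term for Y-linked reads, the median log2 fold changes against wild type were 1.90 for PBS and 1.56 for SN-011.

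Calls against wild type with SN-011 depended on single libraries of every group. Without wild-type replicate 1 edgeR called 2 of 7 members, Irgm1 and Tgtp2, and without wild-type replicate 2 it called 3, adding Ifi47. Over all genes the calls fell too, from 213 to 38 and 48. Without wild-type replicate 3 or without SN-011 replicate 1 it called 7 of 7. It called 4 without PBS replicate 1, PBS replicate 3 or SN-011 replicate 3, and 5 without PBS replicate 2. Irgm2 and Iigp1 were the calls lost most often, with adjusted p up to 0.147 and 0.134. Their log2 fold changes stayed between 0.99 and 1.44 for Irgm2 and between 1.39 and 1.93 for Iigp1. Among libraries that carried Xist, 2 in each group, the SN-011 to wild-type ratio was 2.62 to 3.29 across members.

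Levels between genes were compared as CPM per kilobase of merged exons. In PBS libraries Igtp led with 66.5 ± 11.3 (SD, n = 3), followed by Irgm1 at 33.1 ± 4.43 and Irgm2 at 30.8 ± 5.97. Below these came Ifi47 at 21.7 ± 2.88, Iigp1 at 16.8 ± 2.77, Tgtp1 at 14.1 ± 2.69 and Tgtp2 at 8.81 ± 1.75. Pairs from the sequence that Tgtp1 and Tgtp2 share were not counted, so both values are too low by an unknown amount and their places in the order are uncertain. The regulators stood above Ifi47 and Iigp1 per kilobase in these libraries. The ranges of Irgm1 and Irgm2, of Ifi47 and Iigp1 and of Iigp1 and Tgtp1 overlapped, and the other neighbours in the order did not. With SN-011 the order was the same, from 45.0 ± 14.3 for Igtp to 5.45 ± 1.26 for Tgtp2. In wild type, where Igtp had 14.1 ± 3.75 and Tgtp2 1.73 ± 0.326, only Irgm1 and Ifi47 were neighbours whose ranges stood apart. Taking the longest transcript in place of merged exons changed the rank of 3 members in wild type and 2 with PBS. Irgm1 then led in wild type at 14.3 ± 2.80, and the PBS ranges of Irgm2 and the effector Iigp1 overlapped.

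The balance of effectors and regulators within a library was set beside the groups, as a ratio of CPM that is not scaled by length and serves only to compare libraries. Summed CPM of the 4 effectors over that of the 3 regulators was 0.377, 0.356 and 0.400 in wild type, 0.500, 0.515 and 0.498 with PBS and 0.341, 0.482 and 0.445 with SN-011. The PBS libraries all lay above the other 6, and SN-011 replicate 1 had the lowest ratio of all 9. An exact two-sided permutation test gave 0.1 for PBS against wild type and 0.1 for SN-011 against PBS, the smallest p that 3 against 3 libraries allow, and 0.4 for SN-011 against wild type. Within the regulators, the Igtp to Irgm1 ratio was 0.518 ± 0.0397 in wild type and 0.699 ± 0.0548 with PBS (SD, n = 3 each), with an exact permutation p of 0.1. In SN-011 libraries it was 0.461, 0.773 and 0.644, which overlapped both other groups (exact permutation p 0.5 against PBS and 0.4 against wild type). The Tgtp1 to Tgtp2 ratio, 1.71 ± 0.637 in wild type and 1.75 ± 0.181 with PBS, differed by less than the spread between libraries. In all, 4 ratios were computed in 3 comparisons each, and no p could pass a correction over them.

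**Figure D3:**
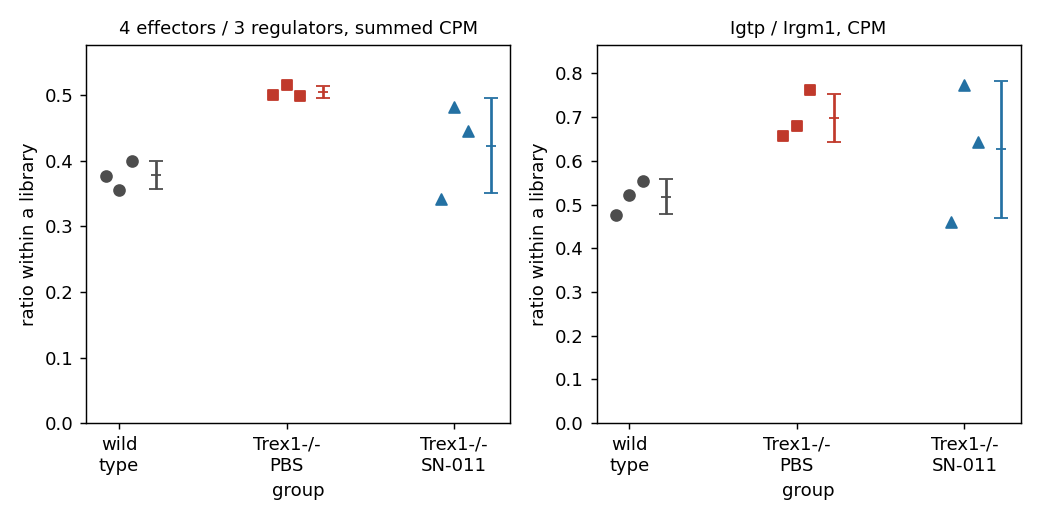
Ratios formed within each library, with points for single libraries and bars for mean ± SD (n = 3). At left, summed CPM of the 4 effectors over the 3 regulators is 0.498 to 0.515 with PBS and 0.356 to 0.400 in wild type. At right, the Igtp to Irgm1 ratio is 0.656 to 0.761 with PBS and 0.476 to 0.555 in wild type.

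Most members lie in 2 gene clusters on mouse chromosome 11 (GRCm38, GENCODE vM21 annotation), where both regulators and effectors are found. The first cluster holds Irgm1 (48861968 to 48871683, minus strand), Tgtp1 (48985327 to 48994172, minus), Tgtp2 (49057194 to 49064206, minus) and Ifi47 (49076587 to 49096974, plus). The second holds Igtp (58199556 to 58207591, plus) and Irgm2 (58199618 to 58222782, plus). Of the 13 tested genes outside the family within 250 kb of the first cluster 1 was called higher with PBS, with a median log2 fold change of 0.03. The called gene was Olfr56 at 3.20 (edgeR adjusted p 0.0131), an olfactory receptor locus at 1.05 CPM over all libraries that shares exon bases with Ifi47. Of 9 such genes around the second cluster 0 were called by edgeR, with a median of 0.00. Iigp1 lies on chromosome 18 (60376027 to 60392634, plus), and of 6 tested neighbours 1 was called higher, BC023105 at 2.70 (adjusted p 0.0177). Whether BC023105 itself belongs to the IRG family was not examined.

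Other genes of the IRG family showed differences of like size. Of 11 listed, 9 were tested and 7 were called higher with PBS, with a median log2 fold change of 2.39. Gm12250, the locus of the effector Irgb10 (a processed pseudogene in this annotation), had 2.03, 2.08 and 2.14 CPM in wild type, 9.56, 13.4 and 9.94 with PBS and 4.14, 7.65 and 8.07 with SN-011. Its 3 groups did not overlap, and its PBS increase was 2.39 in log2 units (SE 0.263, edgeR adjusted p 9.66e-04). The others called were Gm4951, Gm4841, Gm5431, F830016B08Rik, 9930111J21Rik2 and Gm12185, at 1.35 to 3.35. 9930111J21Rik1 had a value of 2.26 and was not called (adjusted p 0.112). Irgq, a distant family member, had 42.2 to 49.1 CPM in wild type and 35.9 to 47.1 with PBS, a value of -0.12 (adjusted p 0.626). Between SN-011 and PBS 0 of the 9 were called by edgeR (4 at an unadjusted p under 0.05), and against wild type 3 were called with SN-011. Irgc1 and Gm12187 had too few reads to be tested.

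Some genes of interferon signalling were higher as well. Of 16 genes of interferon signalling, 15 were tested and 5 were called higher with PBS, with a median log2 fold change of 0.50. Among those with the smallest p were Stat2 at 1.44, Irf9 at 0.86 and Nlrc5 at 1.87 (edgeR adjusted p 3.34e-04 to 0.00133). STAT2 and IRF9 act at the ISRE in type I interferon signalling, and NLRC5 drives MHC class I genes. Ifng, the gene of interferon gamma, had reads in PBS replicates 2 and 3 and SN-011 replicate 3 alone, at 0.124 CPM or less, and was not tested. With SN-011, 4 of the 15 were called higher than wild type, and 0 were called against PBS by edgeR (5 at an unadjusted p under 0.05).

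GBP genes, whose proteins join IRG proteins on the vacuole, were called higher with PBS for 8 of 10 tested, with a median log2 fold change of 1.59. By smallest p these were led by Gbp2 at 1.87, Gbp11 at 3.18, Gbp6 at 2.84 and Gbp7 at 1.17 (edgeR adjusted p 7.35e-04 to 0.00681). With SN-011, 4 of 10 were called higher than wild type and 0 were called against PBS (7 at an unadjusted p under 0.05). The autophagy genes that target IRG proteins to vacuoles were listed as well, and no test between the lists was run. Of 10 tested, among them Atg5 at 0.19, Gabarap at -0.11, Atg3 at 0.13 and Atg7 at -0.09, 0 were called with PBS by edgeR. Over all genes 1.88% were called, so 0 of 10 is near that share. At an unadjusted p under 0.05 edgeR had 0 of the 10, beside 2532 of 16646 genes. Their median log2 fold change was -0.01, beside 0.00 over all genes.

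**Figure D4:**
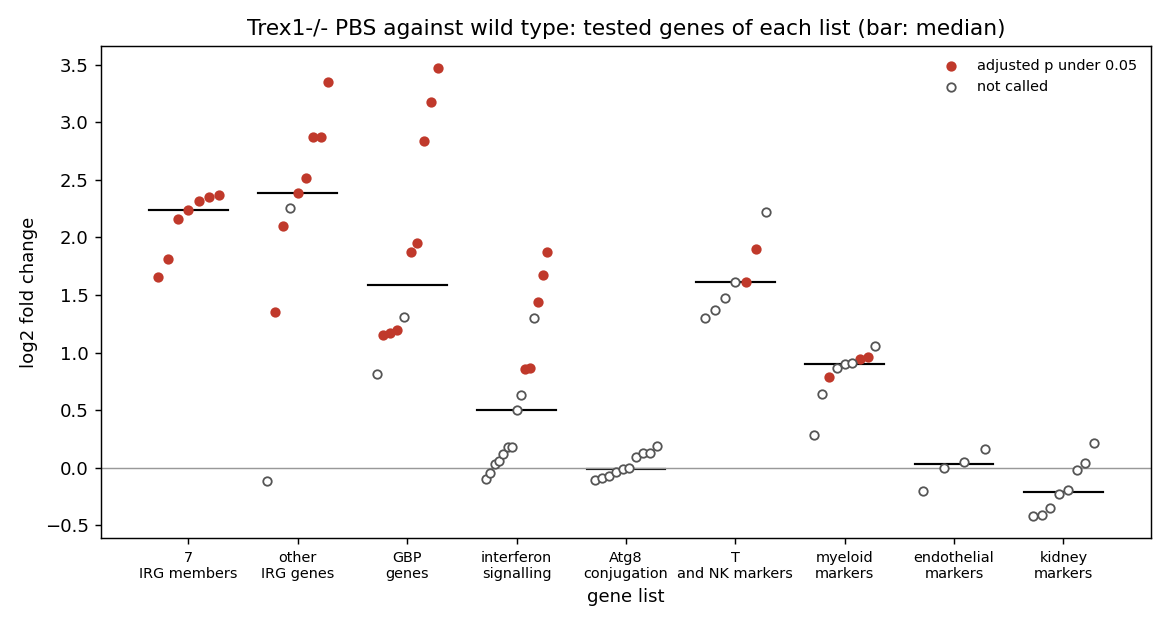
Log2 fold changes of Trex1-/- PBS against wild type for the tested genes of each list, filled where the edgeR adjusted p is under 0.05, with bars at the list medians. IRG members, their relatives and GBP genes lie mostly above 1, while autophagy (Atg8 conjugation), endothelial and kidney genes lie around 0. T and NK markers have a median of 1.61 and myeloid markers 0.90.

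Some markers of T cells and of myeloid cells were called higher with PBS than in wild type, and none of B cells. With SN-011, 0 of these were called against wild type by edgeR. At an unadjusted p under 0.05 edgeR had 3 T and NK and 4 myeloid markers, all higher. It also had 1 B cell marker, Cd79a, which was lower (-0.97 on the log2 scale). Over all genes 2998 of 16646 were under that threshold in either direction. The summed level of 8 T and NK cell markers was 5.80 to 8.68 CPM in wild type, 17.0 to 28.2 with PBS and 6.63 to 17.3 with SN-011, and 2 of 7 tested were called higher with PBS, Cd3g at 1.90 and Cd4 at 1.61 on the log2 scale (edgeR adjusted p 0.0329 each). The sum of 9 myeloid markers was 183 to 219 CPM, 303 to 338 and 178 to 281 in the same order, with C1qa, C1qc and C1qb called out of 9. SN-011 replicate 1, lowest for all 7 members, was also lowest in its group for both sums. That was not particular to these lists. It was also lowest in its group for the summed B cell (0.85 CPM), endothelial (282 CPM), kidney (16566 CPM) and autophagy genes (1552 CPM). For 4 B cell markers the sum was 1.93 to 3.52 CPM in wild type and 1.28 to 2.18 with PBS, for 4 endothelial markers 323 to 365 and 337 to 359, and 0 of either list were called. None of the 25 T and NK, myeloid, B cell and endothelial markers was at 0 in all libraries. In whole kidney, more cells of a type and more RNA per cell cannot be told apart, and the part of immune cells in the IRG levels was not tested.

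The genes whose log2 CPM followed the mean of the 7 members most closely over the 9 libraries were drawn from 14835 candidates with at least 1 CPM. They were Xaf1, Ifi208, Apol9b, Ifi27, Zbp1, Parp9, Phf11b, H2-T10, Oasl1 and Oas1a, with Pearson's r of 0.989 to 0.993. Between members themselves r was 0.950 to 0.994. These points share their groups and libraries, so r is a description. By rank, 5 of the 10 were among the 22 genes with a Spearman's rho of at least 0.983. Their PBS against wild-type values ran from 1.42 (Parp9) to 4.23 (Apol9b) on the log2 scale.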

How the data were processed

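The authors trimmed reads with Trimmomatic, aligned them with hisat2 and counted uniquely mapped pairs per Ensembl gene with featureCounts, and deposited raw counts. The submitters' processing notes name HISAT2, featureCounts and build mm10. Versions, annotation and the strand setting of the counting are not given in the sources used here, so how pairs in antisense overlaps were counted is not known. Pairs in exons shared on the same strand appear to have been left uncounted, as for Trex1 with a count of 0 in every library. Of 54532 gene identifiers, 54495 matched GENCODE vM21.

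Counts were analysed with edgeR 4.0.16 in R 4.3.3. Genes were kept by filterByExpr (minimum count 10, total 15), scaled by TMM and tested by the quasi-likelihood F test over all 9 libraries, fitting the 3 group means alone. A gene was called at a Benjamini-Hochberg adjusted p under 0.05 over 16646 genes. CPM were computed from counts and TMM-scaled library sizes. The tests were checked on simulated data. The labels do not state that each library is a separate animal, the study gives n = 3 per group for these kidneys, and p-values measure the spread between these libraries. Sex-linked reads show more than 1 animal among the wild-type and among the SN-011 libraries. Replicate numbers did not pair the libraries (correlations of deviations -0.294 to 0.242 for equal numbers, -0.368 to 0.380 for others). No libraries were duplicates (chi-square per gene 7.78 to 74.1). The 7 members, the gene lists, the tests and the alternatives were chosen with earlier results of these data known. Members are named with all values, relatives where tested, and other lists by counts with up to 4 genes of smallest p, of which 1 signalling gene is not reported here. Atrip, Olfr56 and BC023105, Igtp and Tgtp ratios, and sums were named after their values were seen. Alternatives were DESeq2 1.42.0, limma 3.58.1, other scalings and filters, a replicate block, a Y-linked term and leaving out each library.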

Additional observations from a re-analysis of the deposited data

How the results depend on the processing

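Calls, medians and single values of the 7 members, and counts of all genes called, were recomputed under 19 alternatives. The order per kilobase and the genes most like the members had 1 alternative each, and the other lists, neighbours and ratios had none. PBS against wild type kept 7 of 7 members called except without wild-type replicate 1 (6 called), and the median log2 fold change was 1.90 with a term for Y-linked reads and 2.11 to 2.44 when 1 library was left out. SN-011 against PBS kept 0 of 7 called under all 19, also where 127 genes (no filter; edgeR exact test), 183 genes (DESeq2 Wald test) or 519 genes (without SN-011 replicate 2) were called in all. The median was -0.26 with the Y-linked term and -0.78 to -0.39 when 1 library was left out. SN-011 against wild type gave 3 of 7 called when only the 6 libraries of the comparison were fitted, and 2 to 7 when 1 library was left out (2 and 3 in the absence of wild-type replicates 1 and 2), with medians of 1.39 to 1.75. The cause was not tested. With the replicate number as a replicate block, 7, 0 and 6 members were called, with medians of 2.24, -0.62 and 1.54, and no call of a member changed. No sign reversed. Counts of all genes called ran from 153 to 774 for PBS against wild type, 0 to 519 for SN-011 against PBS and 38 to 806 for SN-011 against wild type, with 313, 0 and 213 as reported. Depth was ample for the members, whose lowest count was 88 reads (Tgtp2, wild-type replicate 2).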
